A study of Homo sapiens with 6 samples.

Results

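The genes examined here encode the working parts of the lysosome in U87 cells, an established human glioblastoma line. They are the acid hydrolases of its lumen, the cofactor proteins that help them, the proteins of its membrane and the subunits of the V-ATPase, the proton pump that acidifies it. The members were chosen by symbol: 47 named lysosomal genes and 24 genes whose symbol marks a V-ATPase subunit or accessory protein, 71 of the 54628 genes in the count tables. The rule reads symbols and no measured value, but the list was drawn up with earlier results of these data known. Flow sorting separated the U87 cells from their co-culture, and the series title describes mitochondria passing from astrocytes to glioblastoma cells. By their titles, 3 libraries came from cycling cells that had received mitochondria (received) and 3 from cycling cells that had not (not received). No genotype, drug or time point separates the groups in the labels, and they do not say how receipt was detected in the sort. Whether replicates came from different cultures is not stated either, and the p-values cover only the spread among these libraries, which may be technical.

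The lysosome is the acid compartment in which proteins, glycans, lipids and nucleic acids delivered by endocytosis and autophagy are broken down. The V-ATPase has a cytosolic sector, V1, that splits ATP and a membrane sector, V0, that passes protons into the lumen. Many lysosomal genes carry an E-box element called CLEAR, which the MiT-TFE transcription factors TFEB, TFE3 and MITF bind. In glioblastoma and other tumours lysosomal proteases are known both for recycling nutrients and, when secreted, for degrading matrix.

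Total counts ran from 17879552 to 46392491. Not-received replicate 2 was the deepest library and stood apart from the other not-received libraries (chi-square per gene of 20.2 and 22.1, against 3.39 to 5.80 for the other pairs within a group). CDKN2A and CDKN2B, which this line has lost, had 0 counts in all 6 libraries, and the intermediate filament gene VIM stood at 4680 ± 113 CPM (counts scaled to library size; mean ± SD, n = 3) among received libraries and at 3918 ± 333 CPM among the not-received. Of 12 markers listed for this line, 9 were tested. VIM and NES were higher in received libraries (edgeR adjusted p = 0.0170 and 0.00274). CD44 and CHI3L1 were lower (edgeR adjusted p = 0.0111 and 3.75e-05), CHI3L1 at 21.4 ± 1.98 against 39.9 ± 4.21 CPM. The other 5 did not pass an adjusted p under 0.05, which 9.21% of all genes passed as higher and 9.67% as lower. Of 12 astrocyte markers, AQP4, ALDH1L1 and GJB6 had 0 counts throughout and 9 stayed under 1 CPM in every library. The summed level of these 12 was 72.8 to 76.7 CPM over the received and 78.5 to 81.2 CPM over the not-received libraries. Most of it was GLUL, at 58.0 ± 1.76 and 60.7 ± 0.457 CPM (received first), and SLC1A3, at 15.3 ± 0.943 and 17.6 ± 1.29 CPM. Neither differed at an adjusted p under 0.05 (edgeR adjusted p = 0.493 and 0.161).

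In cells that had received mitochondria, most lysosomal genes that changed were lower, and most of the changes were small. The clearest decreases were in the proteases CTSD, TPP1 and CTSA, the cholesterol carrier NPC2, the progranulin gene GRN, the tetraspanin CD63 and the V-ATPase subunit ATP6V1D. Increases of similar or larger size were seen in the proteases CTSS and CTSC and the membrane glycoprotein CD68. Of the 64 members with enough counts to test, 19 were called lower (29.7%, where 9.67% of all 14100 genes tested were lower) and 6 higher (9.38%, where 9.21% of all genes were higher) by edgeR's quasi-likelihood test at an adjusted p under 0.05. Members are abundant genes. Among the 52 whose average log2 CPM was 5 or more, 16 (30.8%) were lower and 4 (7.69%) higher, beside 13.4% and 10.0% of the 6156 genes at that level. The median log2 fold change was -0.09 over the 43 lysosomal members tested and -0.06 over the 21 V-ATPase members, beside -0.0012 over all genes. Received libraries lay wholly below the not-received ones in 26 of the 64 members (40.6%) and wholly above in 8 (12.5%), where all genes gave 19.5% each way and 39.0% in all. Only 2 of the 25 called members, CTSC and CTSS, changed by 1.5-fold or more. In bulk RNA, fewer cells making a transcript and less of it per cell cannot be told apart.

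The calls depended on which libraries were used, most of all on the received ones. Without received replicate 1, 2 or 3, the count of lysosomal members called lower fell from 15 of 43 to 7, 6 or 7 (16.3%, 13.6% or 15.9% of those tested, beside 5.13%, 4.74% or 5.12% of all genes). Without not-received replicate 2 it was 16 (36.4% of those tested, beside 11% of all genes). Without not-received replicate 1 or 3 the share called lower was 27.9% or 31.8%, beside 8.59% or 9.73% of all genes. Scaling by library size alone gave 10 lysosomal members called lower, or 23.3% beside 7.87% of all genes. A set of 10 members kept their call under each of the 13 alternatives run: CTSD, NPC2, TPP1, GRN, CD63, ATP6V1D and CTSA were lower and CTSS, CTSC and CD68 higher.

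**Figure D1:**
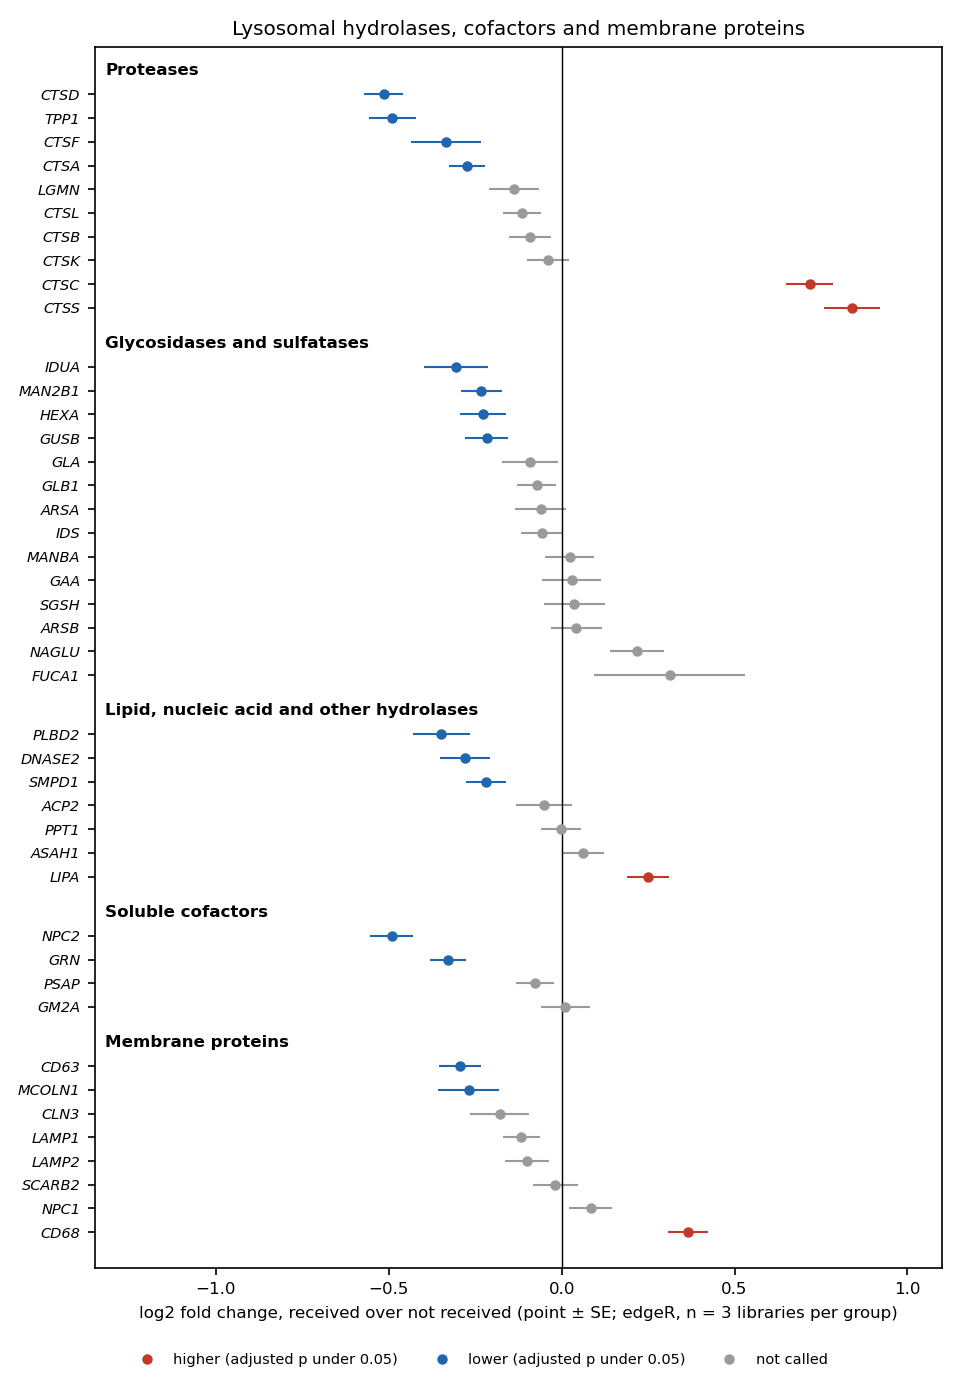
Log2 fold change (received over not received, horizontal axis) of the 43 lysosomal members tested, grouped by role. Points are edgeR estimates, bars their SE (n = 3 libraries per group), and colour marks the call; 15 genes are lower, 4 higher, and CTSC and CTSS lie farthest to the right.

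The lysosomal proteases split into members that fell, members that rose and members that were not called. CTSD, the main aspartic protease of the lysosome, stood at 320.3, 305 and 329 CPM in received replicates 1 to 3 and at 474, 438 and 452 CPM in not-received replicates 1 to 3. The groups did not overlap, and CTSD fell by 0.52 ± 0.06 (SE) on the log2 scale, or by 30.0% (edgeR adjusted p = 5.07e-05). TPP1, a serine protease that removes tripeptides from protein ends and is lost in a childhood neuronal ceroid lipofuscinosis, stood at 159.5, 160.3 and 152 CPM in received and 199, 238 and 226 CPM in not-received libraries. Every received library was under every not-received one, and TPP1 fell by 28.8% (edgeR adjusted p = 2.98e-04). CTSA, the carboxypeptidase known as protective protein because it stabilises beta-galactosidase and neuraminidase, stood at 366, 360.1 and 369.9 CPM in received and 436, 451 and 436 CPM in not-received libraries. CTSA fell by 17.2% (edgeR adjusted p = 0.00292) with no overlap. CTSF, a cysteine protease, fell by 0.33 ± 0.10 from a low level of 14.5 ± 1.13 to 11.5 ± 0.195 CPM, a call (edgeR adjusted p = 0.0359) that was lost when not-received replicate 3 or a received library was left out, with library size alone, with DESeq2 and with the replicate block (adjusted p over all 13 alternatives between 0.0320 and 0.117).

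The proteases that rose had the largest changes of the 64 members tested. CTSS, a cysteine protease best known for trimming the invariant chain of class II histocompatibility molecules, stood at 38.1, 40.2 and 37.0 CPM in received and 20.04, 20.9 and 23.5 CPM in not-received libraries. It was 1.79-fold higher in received cells (log2 fold change 0.84 ± 0.08 SE, edgeR adjusted p = 1.89e-05). CTSC, the dipeptidyl peptidase that activates granule serine proteases of immune cells, stood at 53.6, 55.6 and 53.4 CPM against 32.1, 32.7 and 34.1 CPM, 1.64-fold higher (0.72 ± 0.07, edgeR adjusted p = 1.62e-05). In both genes all 3 received libraries lay well above the not-received ones. CTSS and CTSC are genes that immune cells also express, as is CD68. Of 17 macrophage and microglia markers, AIF1, TYROBP, C1QA, C1QB, C1QC, CX3CR1 and P2RY12 had 0 counts in all libraries and 14 stayed under 1 CPM in each. The summed level of the 17 was 154 to 172 CPM in received and 132 to 137 CPM in not-received libraries, most of it CD74, the invariant chain gene, which was itself higher at 135.9 ± 8.28 against 106.6 ± 2.97 CPM (log2 fold change 0.35 ± 0.06, edgeR adjusted p = 0.00179). The receptor gene CSF1R, at 21.2 ± 1.19 and 20.5 ± 0.653 CPM (received first), made up most of the rest and was not called. Without CD74 the sum was 25.7 to 28.8 CPM in received and 27.4 to 28.8 CPM in not-received libraries, and its part in the results for CTSS, CTSC and CD68 was not tested.

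The other cysteine proteases were not called. CTSB, the most abundant of them per length, stood at 435, 455 and 437 CPM in received and 470.3, 439 and 505 CPM in not-received libraries, with overlap (log2 fold change -0.09 ± 0.06, edgeR adjusted p = 0.315). Without not-received replicate 2 it was called lower (edgeR adjusted p = 0.0484). CTSL stood at 177, 179 and 181 against 187, 194 and 201 CPM, without overlap but short of a call (-0.11 ± 0.06, edgeR adjusted p = 0.164). CTSK, the collagen-degrading cathepsin of osteoclasts, had a log2 fold change of -0.04 ± 0.06 and LGMN, the asparaginyl endopeptidase that processes other cathepsins, of -0.14 ± 0.07 (edgeR adjusted p = 0.690 and 0.200). CTSH had 5 to 20 counts per library, CTSZ 0 to 3 and CTSO 0 in all 6, and none of these was tested. The labels do not say what became of reads that map to several genes, so these low counts do not show that CTSZ or CTSO is silent. A floor of 3 counts corresponds to 0.0661 to 0.167 CPM from the deepest to the shallowest library and covers counting error only.

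**Figure D2:**
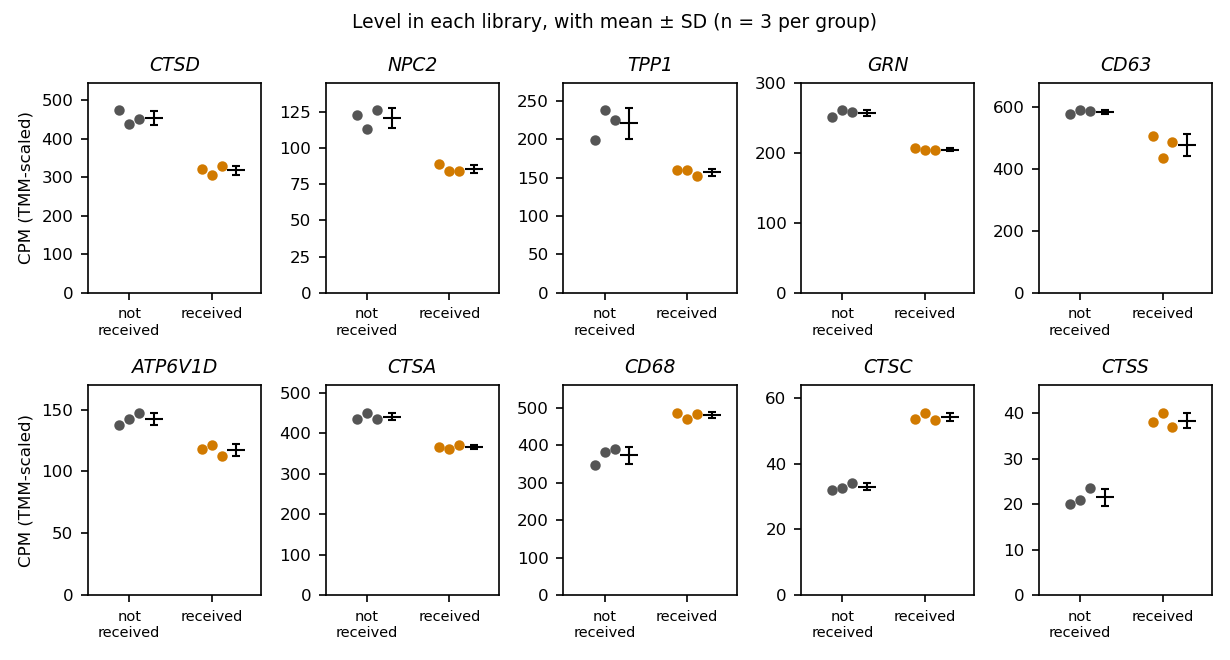
Level in TMM-scaled CPM (vertical axes, from 0) in each library for the 10 members whose call held under every alternative run. Points are libraries and bars the mean ± SD (n = 3 per group). In each of the 10 genes the received and not-received libraries do not overlap, as in 39.0% of all genes tested. Choosing genes by stable calls favours this.

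Among the glycosidases and sulfatases, which strip sugars and sulfate groups from glycoproteins, glycolipids and glycosaminoglycans, 4 of 14 tested were lower and 0 higher, beside 9.67% and 9.21% of all genes. These decreases were modest. MAN2B1, lysosomal alpha-mannosidase, stood at 74.5, 71.8 and 74.4 CPM in received and 85.2, 87.9 and 85.9 CPM in not-received libraries and fell by 14.9% (edgeR adjusted p = 0.0153). HEXA, the alpha chain of beta-hexosaminidase whose loss causes Tay-Sachs disease, stood at 66.2, 68.5 and 63.0 against 81.1, 76.3 and 74.2 CPM and fell by 14.6% (edgeR adjusted p = 0.0274). GUSB, beta-glucuronidase, stood at 63.3, 60.1 and 61.1 against 70.5, 73.6 and 70.1 CPM and fell by 13.9% (edgeR adjusted p = 0.0283). IDUA, which cleaves iduronic acid from heparan and dermatan sulfate, stood at 17.9, 20.4 and 21.6 against 25.9, 25.3 and 22.7 CPM and fell by 19.1% (edgeR adjusted p = 0.0340). None of these 4 genes overlapped between the groups, yet each lost its call when any 1 received library was dropped (edgeR adjusted p up to 0.0921, 0.141, 0.134 and 0.173 in the order given). HEXA also lost it without not-received replicate 1, and IDUA without not-received replicate 1 or 2. With library size alone HEXA, GUSB and IDUA were not called (edgeR adjusted p = 0.0618, 0.0580 and 0.0565), nor was IDUA by DESeq2 (adjusted p = 0.0675).

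The other 10 enzymes of this class tested lay between -0.09 and 0.31 on the log2 scale and were not called. IDS, which acts on the same glycosaminoglycans as IDUA, stood at 224 ± 3.96 and 234 ± 14.8 CPM, and GLB1, beta-galactosidase, at 95.6 ± 0.712 and 100.5 ± 2.04 CPM, received first. NAGLU, a heparan sulfate enzyme, was the nearest to a call on the higher side (0.22 ± 0.08, edgeR adjusted p = 0.0676), and it was called with scaling by library size alone and without a low-count filter (edgeR adjusted p = 0.0384 and 0.0440). FUCA1, alpha-fucosidase, was the least abundant at 4.16 ± 0.994 and 3.35 ± 0.601 CPM. NEU1, neuraminidase 1, had 0 to 3 counts per library and was not tested, and the same limit on reading a low count holds for it. GLB1 and NEU1 are the partners of CTSA in a lysosomal multienzyme complex.

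Of the 7 enzymes that act on lipids, DNA, phosphate esters and other substrates, 3 were lower and 1 higher, beside the same 9.67% and 9.21%. PLBD2, a phospholipase B-like lysosomal protein, stood at 136, 135 and 139.7 CPM in received and 155, 200.03 and 166 CPM in not-received libraries and fell by 21.5% (edgeR adjusted p = 0.0122). Its highest value lay in not-received replicate 2; without that library the log2 fold change was -0.23 instead of -0.35. DNASE2, the acid DNase that degrades engulfed DNA, stood at 56.2, 52.9 and 50.1 against 66.2, 60.6 and 66.8 CPM and fell by 17.6% (edgeR adjusted p = 0.0156). SMPD1, acid sphingomyelinase, stood at 104, 106 and 113 against 129, 125 and 123 CPM and fell by 14.0% (edgeR adjusted p = 0.0195).

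LIPA, the acid lipase that frees cholesterol and fatty acids from lipoprotein lipids, went the other way. It stood at 109.8, 111 and 108 CPM in received and 88.7, 89.6 and 98.9 CPM in not-received libraries, 1.19-fold higher with no overlap (log2 fold change 0.25 ± 0.06, edgeR adjusted p = 0.0129). PPT1, a palmitoyl-protein thioesterase, stood at 122 ± 5.41 and 122 ± 3.71 CPM, and ASAH1, acid ceramidase, at 76.2 ± 1.06 and 72.9 ± 1.48 CPM (received first; edgeR adjusted p = 0.988 and 0.491). ACP2, an acid phosphatase, had a log2 fold change of -0.05 ± 0.08. The call of PLBD2 was lost when any 1 received library was left out, those of SMPD1 and LIPA without received replicate 1 or 2, and that of DNASE2 without received replicate 2 or 3.

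The soluble cofactors have no enzyme activity of their own or serve other enzymes. NPC2, which hands cholesterol in the lumen to the membrane protein NPC1, stood at 88.8, 84.3 and 84.2 CPM in received and 123, 113 and 126 CPM in not-received libraries. It fell by 28.9% with no overlap (log2 fold change -0.49 ± 0.06, edgeR adjusted p = 1.55e-04). NPC1, its partner, stood at 311, 328 and 314 against 277, 318 and 302 CPM, with overlap, and was not called (0.08 ± 0.06, edgeR adjusted p = 0.361). GRN, progranulin, a secreted growth factor that the lysosome cuts into granulins, stood at 207, 204 and 204 against 252, 261 and 258 CPM. It fell by 20.3% (edgeR adjusted p = 9.11e-04), with the received libraries nearly equal to each other. PSAP, the precursor of the saposins that present glycolipids to their hydrolases and a binding partner of progranulin, stood at 906, 909 and 886 against 956, 917 and 976 CPM. The PSAP groups did not overlap, but the difference was small beside its error and was not called (-0.08 ± 0.05, edgeR adjusted p = 0.337). GM2A, the GM2 activator that HEXA needs, was at 73.6 ± 1.90 and 73.2 ± 6.39 CPM (edgeR adjusted p = 0.931).

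Of the 8 membrane proteins 2 were lower and 1 higher, too few to set apart from the 9.67% and 9.21% of all genes. CD63, a tetraspanin of late endosomes, lysosomes and exosomes, stood at 504, 435 and 487 CPM in received and 574, 588 and 585 CPM in not-received libraries. It fell by 18.4% without overlap (log2 fold change -0.29 ± 0.06, edgeR adjusted p = 0.00521). MCOLN1, the calcium channel through which lysosomes signal to TFEB, stood at 24.7, 23.0 and 23.4 against 30.8, 29.8 and 25.0 CPM and passed narrowly (edgeR adjusted p = 0.0495), a call lost under 9 of the 13 alternatives, among them every library left out except not-received replicate 3 (adjusted p between 0.0123 and 0.180). CD68, a heavily glycosylated LAMP-family protein that is abundant in macrophages, stood at 488, 472 and 484 against 349, 382 and 389.7 CPM. It was 1.29-fold higher in received cells (0.36 ± 0.06, edgeR adjusted p = 8.83e-04), with all received libraries above all not-received ones.

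The main structural proteins of the lysosomal membrane were not called. LAMP1 stood at 492, 472 and 481 CPM in received and 526, 509.9 and 529.8 CPM in not-received libraries, without overlap (log2 fold change -0.12 ± 0.05, edgeR adjusted p = 0.141; 0.0481 and called lower without not-received replicate 2). LAMP2, which also serves as a receptor in chaperone-mediated autophagy, stood at 196, 208 and 188 against 203, 206 and 226 CPM, with overlap (-0.10 ± 0.06, edgeR adjusted p = 0.282). SCARB2, a sorting receptor of the lysosomal membrane, had a log2 fold change of -0.02 ± 0.06 and CLN3, a membrane protein lost in juvenile Batten disease, of -0.18 ± 0.09 (edgeR adjusted p = 0.869 and 0.160). CLN3 was called lower without not-received replicate 2 (edgeR adjusted p = 0.0418).

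Taken as a share of all counts, the 47 lysosomal members held 0.690%, 0.690% and 0.680% in received replicates 1 to 3 and 0.719%, 0.720% and 0.739% in not-received replicates 1 to 3. The groups did not overlap, and the mean difference was -0.0391 percentage points. The share of genes of mitochondrial DNA moved too, at 4.72% ± 0.0725 of counts for received and 5.58% ± 0.636 for not-received libraries, and its part in the result was not tested. With those genes left out of the total, the difference in the lysosomal share was -0.0481 percentage points. The 24 V-ATPase members held 0.164%, 0.163% and 0.163% in received and 0.175%, 0.157% and 0.177% in not-received libraries, and these groups overlapped because not-received replicate 2 was the lowest of all 6. No test was made of these shares.

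The V-ATPase genes changed in a minority of subunits and in both directions. Of 21 tested, 4 were lower (19.0%, beside 9.67% of all genes) and 2 higher (9.52%, beside 9.21%). Without received replicate 1, 2 or 3 the lower calls numbered 2, 1 or 2, with 5.13%, 4.74% or 5.12% of all genes lower, and the higher calls 0 each time. In the V1 sector, ATP6V1D, a subunit of the rotating central stalk, stood at 118, 122 and 112 CPM in received and 138, 142 and 148 CPM in not-received libraries. It fell by 17.7% with no overlap (log2 fold change -0.28 ± 0.06, edgeR adjusted p = 0.00490). ATP6V1C1, whose product joins V1 to V0 and is released when the pump is taken apart, stood at 56.7, 55.7 and 57.8 against 66.5, 65.0 and 71.3 CPM and fell by 16.0% (edgeR adjusted p = 0.0175). ATP6V1E2, a stalk isoform best known from testis, stood at 6.28, 6.92 and 6.06 against 4.24, 4.67 and 4.55 CPM, 1.43-fold higher (edgeR adjusted p = 0.0304), a call lost when any 1 library but not-received replicate 2 was left out and by DESeq2 (adjusted p = 0.0726). The call of ATP6V1C1 was lost when any 1 received library was left out (highest edgeR adjusted p = 0.0956).

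The ATP-splitting core of V1 was not called. ATP6V1A, the catalytic subunit, stood at 85.5, 89.1 and 87.7 CPM in received and 79.6, 70.7 and 91.2 CPM in not-received libraries, with overlap (log2 fold change 0.12 ± 0.08, edgeR adjusted p = 0.320). Its partner ATP6V1B2 stood at 73.2 ± 1.05 and 73.5 ± 2.10 CPM. The most abundant uncalled V1 genes, ATP6V1F of the central stalk and ATP6V1E1 of the outer stalks, stood at 122 ± 6.18 and 115 ± 0.264 CPM in received and 128 ± 2.18 and 119 ± 4.29 CPM in not-received cells. ATP6V1G1 and ATP6V1H, the first a partner of ATP6V1E1 and the second a regulatory subunit, had log2 fold changes of 0.09 ± 0.06 and -0.10 ± 0.08 (edgeR adjusted p = 0.335 and 0.408). The low-level isoforms ATP6V1B1 and ATP6V1C2 stood at 0.334 to 1.502 CPM and were not called. ATP6V1G2 had 3 to 17 counts per library and ATP6V1G3 had 0 in all.

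**Figure D3:**
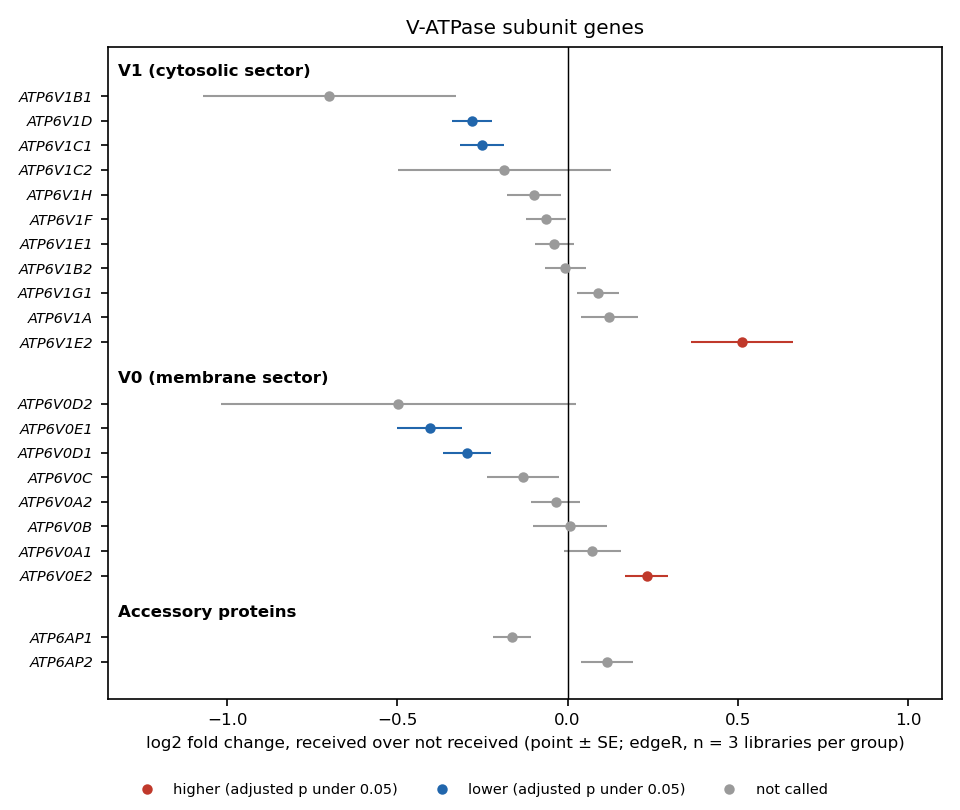
Log2 fold change (received over not received, horizontal axis) of the 21 V-ATPase members tested, by sector. Points are edgeR estimates and bars their SE (n = 3 libraries per group); 4 genes are lower and 2 higher, and the wide bars belong to ATP6V1B1, ATP6V0D2 and ATP6V1C2, which have few counts.

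In the V0 sector, ATP6V0D1, which couples the membrane ring to the central stalk, stood at 148, 145 and 164 CPM in received and 200.4, 170.2 and 189.9 CPM in not-received libraries and fell by 18.5% (edgeR adjusted p = 0.0114). ATP6V0E1, a small membrane subunit, stood at 125, 114 and 119 against 171, 132 and 171 CPM. ATP6V0E1 fell by 24.5% without overlap (log2 fold change -0.40 ± 0.10, edgeR adjusted p = 0.0160), and its not-received replicate 2 lay close to the received libraries. ATP6V0E2, the other gene for that subunit, stood at 87.5, 85.7 and 93.3 against 77.1, 72.7 and 77.3 CPM, 1.17-fold higher (edgeR adjusted p = 0.0207). ATP6V0D1 lost its call without received replicate 1 or 2, ATP6V0E1 without not-received replicate 1 or received replicate 2 or 3, and ATP6V0E2 when any 1 received library was dropped (highest edgeR adjusted p = 0.0865, 0.0873 and 0.106). The proton-carrying ring genes were not called: ATP6V0C stood at 99.3 ± 13.7 and 108.9 ± 10.3 CPM and ATP6V0B at 116.5 ± 2.31 and 116.3 ± 19.3 CPM (edgeR adjusted p = 0.429 and 0.971). The a-subunit genes ATP6V0A1 and ATP6V0A2, which steer the pump to different membranes, had log2 fold changes of 0.07 ± 0.08 and -0.03 ± 0.07. ATP6V0D2, the osteoclast isoform, was at 0.167 to 0.930 CPM and ATP6V0A4, the kidney isoform, had 2 to 13 counts per library.

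The accessory proteins were not called. ATP6AP1, which helps V0 assemble, stood at 114, 117 and 115 CPM in received and 132, 126 and 129.97 CPM in not-received libraries, without overlap and close to the threshold (log2 fold change -0.16 ± 0.06, edgeR adjusted p = 0.0561; 0.0183 without not-received replicate 2). ATP6AP2, also known as the prorenin receptor, stood at 140.4, 153 and 134 against 131, 119 and 145 CPM, with overlap (0.12 ± 0.08, edgeR adjusted p = 0.308).

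Several subunits have more than 1 gene among the members, and the level per kb of exon compares the RNA of those genes, not their protein. In 5 of the 7 such subunits 1 gene held at least 95.6% of the subunit's level in every library: ATP6V0D1, ATP6V1B2, ATP6V1C1, ATP6V1E1 and ATP6V1G1. Among the 3 a-subunit genes matched by symbol, ATP6V0A1 held most of the level (67.0% ± 1.16 against 65.1% ± 1.94, received first, SD, n = 3 each). ATP6V0A2 held most of the rest. A gene for a subunit that carries another kind of symbol is not counted in these shares. For the e subunit, ATP6V0E2 held 28.1%, 29.6% and 30.6% in received and 20.1%, 23.5% and 20.1% in not-received libraries, 29.4% ± 1.22 against 21.3% ± 1.95. The received libraries were all above the not-received ones. The size of these shares depends on the exon lengths, 1623 bases for ATP6V0E1 and 2902 for ATP6V0E2. The share of ATP6V1E2 in its subunit was 2.92% ± 0.191 and 2.01% ± 0.119, also without overlap. The first of these shifts goes with a called change in both genes, the second with a call in ATP6V1E2 alone, and neither share was tested.

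Ranked by level per kb, PSAP was the most abundant member at 312 ± 4.34 CPM per kb in received and 329.6 ± 10.4 CPM per kb in not-received cells. CD63 and CD68 changed order between the groups: CD63 stood at 206 ± 15.5 and 252 ± 3.06 CPM per kb, and CD68 at 256 ± 4.51 and 199 ± 11.7 CPM per kb, received first. LAMP1, CTSD, CTSA and ATP6V1F came next. CTSD stood above LAMP1 in not-received cells (214 ± 8.42 against 193 ± 3.96 CPM per kb) and below it in received cells (149.8 ± 5.82 against 178 ± 3.78 CPM per kb). The proteases that rose were low on this scale: CTSS stood at 9.36 ± 0.396 and 5.23 ± 0.443 CPM per kb and CTSC at 7.09 ± 0.157 and 4.32 ± 0.132 CPM per kb, received first. Per-kb levels depend on exon lengths from an annotation that may differ from the one used for counting. The lengths pool all exons of a gene, 7639 bases for CTSC and 4107 for CTSS. A gene whose cells make a shorter transcript is ranked too low.

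**Figure D4:**
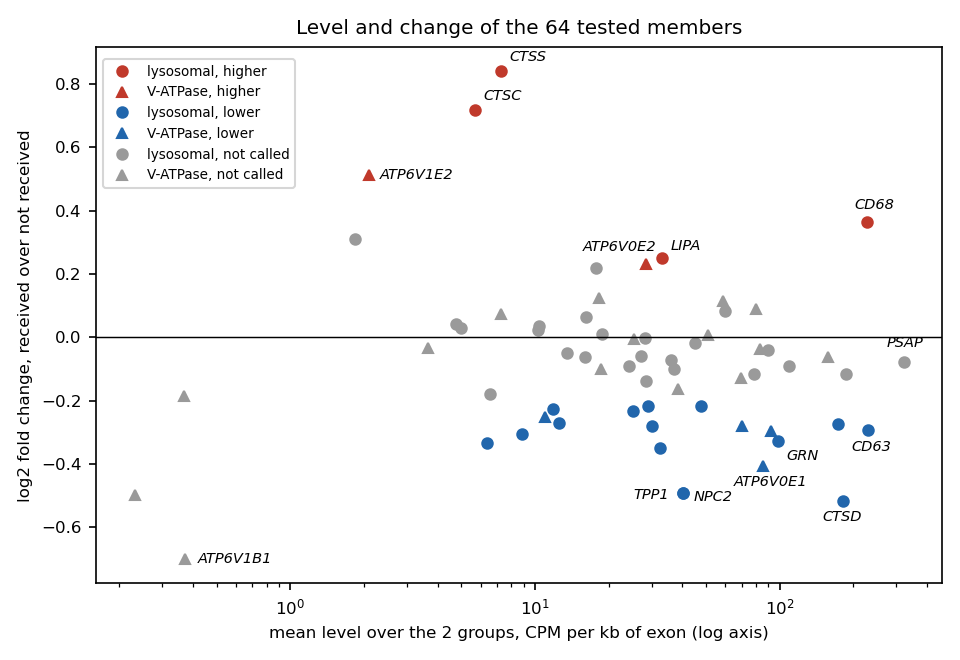
Log2 fold change (vertical axis) against mean level per kb of exon (horizontal log axis) for the 64 members tested, circles for lysosomal and triangles for V-ATPase genes, colour for the call. CTSS and CTSC change most at a low level, CD68 is the most abundant member called higher, and CTSD, CD63 and GRN are lower among the abundant members.

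The CLEAR element was looked for in the RefSeq promoter windows (GRCh38.p14) that run from 250 bases before to 50 bases after a gene's start. Of the 71 members, 51 matched a window. The 20 without one include CTSS and ATP6V1E2, called higher, and HEXA, ATP6V1C1 and ATP6V0E1, called lower. The core TCACGTGA, which reads the same on both strands and contains the E-box CACGTG, was present in 8 of these 51 (15.7%) and in 1.65% of 15843 protein-coding genes. The E-box, with or without the rest of the core, was present in 15 of 51 (29.4%, against 10.9%), and these 15 include the 8 with the core. The element is known from lysosomal genes, so its larger share among members is no independent finding. Of the 16 matched members called lower 4 held the core (ATP6V0D1, CTSA, MCOLN1 and PLBD2), as did 4 of the 25 not called (ATP6V1G1, CLN3, GAA and LAMP1) and 0 of the 4 higher. The core was thus found among members that fell and among members that were not called; among all genes tested it was in 2.29% of 9690, and in 2.75% of the 1018 called lower. A match describes the letters in the window and does not show that a factor binds.

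The stretches below show the 100 bases before the gene start for the 7 members whose core lies wholly there, on the transcribed gene's strand, 5′ to 3′, with the core in capitals; CLN3, whose core does not lie wholly in those bases, is left out. The first 4 genes were lower in received cells and the last 3 were not called.
ATP6V0D1 (chr16:67481158-67481257, minus strand): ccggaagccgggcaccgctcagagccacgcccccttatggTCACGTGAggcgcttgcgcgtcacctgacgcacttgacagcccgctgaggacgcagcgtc
CTSA (chr20:45891235-45891334, plus strand): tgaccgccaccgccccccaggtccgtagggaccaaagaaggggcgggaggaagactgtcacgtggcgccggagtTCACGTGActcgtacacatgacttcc
MCOLN1 (chr19:7522524-7522623, plus strand): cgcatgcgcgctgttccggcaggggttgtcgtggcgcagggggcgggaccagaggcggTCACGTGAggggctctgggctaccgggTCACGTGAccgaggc
PLBD2 (chr12:113358487-113358586, plus strand): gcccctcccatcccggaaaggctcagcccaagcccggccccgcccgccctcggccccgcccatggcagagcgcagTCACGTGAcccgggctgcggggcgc
ATP6V1G1 (chr9:114587669-114587768, plus strand): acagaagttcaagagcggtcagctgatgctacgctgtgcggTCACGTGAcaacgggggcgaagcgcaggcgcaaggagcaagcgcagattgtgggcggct
GAA (chr17:80101481-80101580, plus strand): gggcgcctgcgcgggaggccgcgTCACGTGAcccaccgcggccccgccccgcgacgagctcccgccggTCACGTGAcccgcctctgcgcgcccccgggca
LAMP1 (chr13:113297139-113297238, plus strand): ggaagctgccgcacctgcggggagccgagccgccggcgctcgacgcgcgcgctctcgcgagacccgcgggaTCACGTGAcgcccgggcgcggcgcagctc
MCOLN1 and GAA hold 2 cores each. MCOLN1 has them 42 and 15 bases before its start and GAA, acid alpha-glucosidase, 77 and 32 bases before. GAA stood at 18.4 ± 0.954 and 18.0 ± 0.444 CPM, received first, and did not pass the test (log2 fold change 0.03 ± 0.09, edgeR adjusted p = 0.840), so of the genes with a doubled core 1 passed the test narrowly and 1 did not.

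The factors that bind this element went in different directions. TFE3, the most abundant of them, fell from 149 ± 6.27 to 122 ± 4.41 CPM (log2 fold change -0.29 ± 0.06, edgeR adjusted p = 0.00393), and this call held under all alternatives run. TFEB was called higher at a low level, 6.61 ± 0.791 against 4.71 ± 0.239 CPM (0.49 ± 0.15, edgeR adjusted p = 0.0409), a call lost when any 1 library but not-received replicate 2 was left out (highest edgeR adjusted p = 0.178). TFEB was not called by DESeq2 (adjusted p = 0.0912), nor by edgeR without a low-count filter (0.0507) or with the replicate block (0.0576). MITF stood at 7.74 ± 0.415 and 8.45 ± 1.08 CPM and did not pass (edgeR adjusted p = 0.525).

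Lysosomal genes outside the 71 were read from lists of related genes. Of 29 other luminal enzymes tested, 9 were lower and 1 higher, with a median log2 fold change of -0.11 (all genes, 9.67% lower and 9.21% higher). MAN2B2, a second lysosomal mannosidase, fell from 78.8 ± 8.07 to 52.9 ± 1.43 CPM (-0.58 ± 0.08), and ACP5, tartrate-resistant acid phosphatase, from 10.9 ± 1.56 to 6.82 ± 0.423 CPM (-0.68 ± 0.13); both calls held under all alternatives run. ARSK, a glucuronate sulfatase, was the enzyme called higher (0.54 ± 0.14), and its call was lost without not-received replicate 1 or received replicate 2 (highest edgeR adjusted p = 0.0887).

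Of 33 other membrane proteins tested, 4 were lower and 3 higher, with a median of -0.02, shares near those of all genes (9.67% lower and 9.21% higher). GLMP, a glycosylated lysosomal membrane protein, fell by 0.38 ± 0.08 on the log2 scale. TMEM106B, a lysosomal protein linked to frontotemporal dementia together with GRN, was higher by 0.35 ± 0.07, and the nucleoside transporter SLC29A3 by 0.56 ± 0.15, the latter a call lost without not-received replicate 1 or 3 or received replicate 1 or 2 (highest edgeR adjusted p = 0.115). Sorting to the lysosome, which runs through the mannose 6-phosphate tag and its receptors, had 1 of 19 genes lower and 0 higher: GNPTG, a subunit of the tagging enzyme, at an edgeR adjusted p of 0.0487, a call lost whichever library was dropped (edgeR adjusted p up to 0.167) and under every alternative on all 6 libraries except RLE factors and the CPM filter. Among 14 genes for V-ATPase assembly and regulation MEAK7 was lower (-0.22 ± 0.07, edgeR adjusted p = 0.0389; lost when any 1 library but not-received replicate 2 was left out, with library size alone and by DESeq2) and 0 were higher.

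Some members share their genomic span with other genes, and the labels do not say whether the counting used strand. In RefSeq the span of LIPA takes in the interferon-induced genes IFIT1, IFIT2, IFIT3 and IFIT5, none of which was called (log2 fold changes of 0.23 ± 0.16, -0.19 ± 0.33, 0.02 ± 0.14 and 0.09 ± 0.08). CTSA overlaps PLTP, which was higher (0.31 ± 0.06, edgeR adjusted p = 0.00358) where CTSA was lower. CTSD, CD63, CD68, MCOLN1, PLBD2 and ATP6V0E2 overlap long non-coding RNA genes. Protein-coding genes overlap further called members: RDH5 overlaps CD63, SYNDIG1L overlaps NPC2, SLC26A1 overlaps IDUA, GPHN overlaps ATP6V1D and RHOQ overlaps ATP6V1E2. How reads in these overlaps were assigned is not stated.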

How the data were processed

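Poly(A) RNA of sorted U87 cells was read as 150 bp paired ends on an Illumina NovaSeq, per the labels. The authors deposited unnormalised counts for each gene symbol, 1 file per library. DESeq and R 3.6.1 are listed in the submitters' processing notes. Aligner, counting program, build and annotation were not given in the sources used here. Genes were kept with filterByExpr (14100 of 54628), scaled with TMM factors and tested with the quasi-likelihood test of edgeR 4.0.16 in R 4.3.3 (group as the single term; Benjamini-Hochberg over all genes; call at an adjusted p under 0.05). CPM are TMM-scaled, and each SE was taken as |log2 fold change| / √F. Exon lengths are unions of GENCODE 29 basic exons, found for all 71 members.

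Members and lists were chosen with earlier results of these data known. The rule named all called members, the 2 most abundant uncalled ones of each class, 13 fixed genes, TFEB, TFE3, MITF and up to 3 called genes per related list; other names were chosen after their values were seen. Alternatives were RLE factors, library size alone, DESeq2 1.42.0, limma-voom (limma 3.58.1), no filter, at least 1 CPM in 3 libraries, the replicate number as a block, and leaving out each library. On simulated counts the test recovered most changed genes. The changes put in were of 1.5-fold or more, larger than most changes called here, and recovery of smaller ones was not tested. False calls exceeded the nominal share, more so where each gene kept its own dispersion. Replicates share numbers, but same-numbered libraries did not deviate together.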

Additional observations from a re-analysis of the deposited data

How the results depend on the processing

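Of the 25 called members, 10 kept their call under all alternatives, 19 under the 7 that use all 6 libraries, and 0 changed sign. Lysosomal members called lower numbered 6 to 16 with 1 library left out (15 with all libraries) and those called higher 3 to 4; V-ATPase members called lower numbered 1 to 5 and higher 0 to 2. The count of all genes called higher was 604 to 1356 and that of all genes called lower 691 to 1579 with 1 library left out, against 1298 and 1364. DESeq2 called 1 V-ATPase member higher instead of 2, and without a low-count filter 2084 genes were lower. With library size alone 60.3% of all calls were higher, against 48.8%. With the replicate number as a replicate block, 14 lysosomal members were lower; deviations of same-numbered libraries correlated at -0.2, -0.068 and 0.0535, so the numbers were not taken as pairs. Sign changes occurred in 10 uncalled members, which were uncalled there too. PPT1 had log2 fold changes of 0.036 with library size alone, 0.0019 with DESeq2 and 0.0020 with the CPM filter, and with library size alone SCARB2 had 0.019, ATP6V0A2 0.0031 and ATP6V1B2 0.031. With 1 library left out the range was -0.033 to 0.024 for PPT1, -0.072 to 0.028 for SCARB2, -0.024 to 0.015 for ATP6V1B2, -0.038 to 0.084 for GM2A, -0.00062 to 0.062 for MANBA, -0.0058 to 0.068 for GAA, -0.049 to 0.11 for SGSH, -0.13 to 0.11 for ATP6V0B and -0.41 to 0.029 for ATP6V1C2. The cause of these changes was not tested. The 0 counts of CTSO and ATP6V1G3 are read as counts only, since how shared reads were assigned is not stated.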
